A study of Homo sapiens with 36 samples.

Results

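The genes described here encode the epidermal growth factor (EGF) receptor system: the ligands AREG, EREG, HBEGF and TGFA, the ligand-shedding protease ADAM17, the receptors EGFR, ERBB2 and ERBB3, and the feedback inhibitors ERRFI1 and SPRY2. They were taken by name, as all probes of a bead array that target these 10 genes, which gave 19 of 47323 probes and 10 of 34694 named targets. RNA came from 2 human cell lines, DLD-1, a colorectal adenocarcinoma line of epithelial type, and Jurkat, a leukaemic T cell line. Each line was measured on 12 arrays of untreated control cells (0% extract) and on 6 arrays of cells exposed to 20% cigarette smoke extract (CSE) for between 2 and 6 h, with no exposure time attached to any array. Both are established tumour lines, and all groups of a line share its genotype. Separate cultures are not stated for the arrays of a group, and the p-values therefore measure a spread between arrays that may be technical.

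EGF receptor ligands are made as membrane-anchored precursors. ADAM17, a metalloprotease, cuts TGFA, AREG, EREG and HBEGF free, and the released ligand makes receptors pair at the cell surface. EGFR binds these ligands, ERBB2 has no known ligand and serves as the preferred partner, and ERBB3 binds neuregulins and has little kinase activity of its own. The receptors signal through RAS and the kinases RAF, MEK and ERK to immediate early genes such as FOS. ERK signalling induces ERRFI1 (also called MIG6), which binds and inhibits the EGFR kinase, and SPRY2, a Sprouty protein that dampens signalling from receptor tyrosine kinases to ERK. In gut epithelium the system is known for its part in growth and wound repair.

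The sequences just upstream of the gene starts are printed for the genes on which the results turn. HBEGF was the member that rose with CSE. ERRFI1 was highest on the same 6 control DLD-1 arrays as HBEGF. EREG and AREG are neighbours on chromosome 4, 56386 bases apart with 0 annotated genes between them. The EREG probe was detected in DLD-1 and the AREG probe on no array. Each line holds the 250 bases before the start, 5′ to 3′ on the strand of the gene, from RefSeq on GRCh38.p14; capitals mark matches to the motifs searched, on either strand.
HBEGF (chr5:140346604-140346853, minus strand): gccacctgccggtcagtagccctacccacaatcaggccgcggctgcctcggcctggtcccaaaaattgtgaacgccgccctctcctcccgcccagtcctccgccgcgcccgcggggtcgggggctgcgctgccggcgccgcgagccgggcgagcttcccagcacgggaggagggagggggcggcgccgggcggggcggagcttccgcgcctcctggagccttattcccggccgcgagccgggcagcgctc
ERRFI1 (chr1:8026310-8026559, minus strand): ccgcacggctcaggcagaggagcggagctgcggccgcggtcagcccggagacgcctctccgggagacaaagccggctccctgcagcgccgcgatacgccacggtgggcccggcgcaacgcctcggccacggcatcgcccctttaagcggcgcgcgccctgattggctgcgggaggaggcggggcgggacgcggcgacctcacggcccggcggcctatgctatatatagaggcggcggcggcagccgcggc
EREG (chr4:74364895-74365144, plus strand): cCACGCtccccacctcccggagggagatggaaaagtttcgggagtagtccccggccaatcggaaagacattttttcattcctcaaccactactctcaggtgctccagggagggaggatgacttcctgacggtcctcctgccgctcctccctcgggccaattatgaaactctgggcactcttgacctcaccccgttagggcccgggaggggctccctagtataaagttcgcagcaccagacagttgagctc
AREG (chr4:74444886-74445135, plus strand): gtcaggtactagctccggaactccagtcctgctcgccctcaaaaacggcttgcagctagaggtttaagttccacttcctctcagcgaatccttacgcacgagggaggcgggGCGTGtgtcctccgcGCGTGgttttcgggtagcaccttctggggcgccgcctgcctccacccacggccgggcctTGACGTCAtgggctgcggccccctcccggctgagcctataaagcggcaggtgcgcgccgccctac

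The motifs searched were the AP-1 site TGANTCA, the cAMP response element TGACGTCA, the core of the aryl hydrocarbon receptor site GCGTG, the antioxidant response element TGACNNNGC and the heat shock unit GAANNTTC, on both strands. RefSeq held 13 such windows for 9 of the 10 genes, with none used for ERBB3. The HBEGF and ERRFI1 windows held no match. The EREG window held 1 match to the aryl hydrocarbon receptor core and the AREG window 2, a motif present in 32.2% of all 35116 windows of this length, and windows of ADAM17 and TGFA held it too. The AREG window also held the only cAMP response element among the members, a motif in 1.65% of all windows. AP-1 sites were found in windows of EGFR and ERBB2 (6.57% of all windows), and a heat shock unit in that of ERBB2 (5.78%). None of the member windows held the antioxidant element (10.9%). A match is a stretch of letters and not a measured binding site.

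Between 16012 and 19131 probes per array were detected (detection p under 0.05), with median bead intensities of 97.2 to 121.3. Arrays of a group correlated at 0.963 to 0.99, and no pair of arrays was identical. The number of arrays limits the precision. For Jurkat control replicate 7 a label names DLD-1 as the cell line while its other labels name Jurkat. Its profile correlated at 0.989 with the other Jurkat controls and at 0.84 with the DLD-1 controls, it was kept as Jurkat, and its removal changed the call of no member. Marker levels differed between the lines in the direction of the labels. Of 10 colorectal epithelial markers, 8 were detected on all 12 control DLD-1 arrays and 9 on all 6 CSE arrays, with a mean log2 level per array between 10.57 and 11.15, against 4.64 to 5.83 in Jurkat. Of 10 T cell markers, 9 were detected on all Jurkat arrays, at 9.23 to 9.93, against 4.41 to 4.68 in DLD-1. The epithelial marker VIL1 was detected on no DLD-1 array, and the T cell marker CD28 on 1 of 12 control and 1 of 6 CSE Jurkat arrays. Some markers were also detected in the other line: KRT18 on all 12, ELF3 on 9 and CDX2 on 8 control Jurkat arrays, and TRAT1 on 7 of 12 control and 5 of 6 CSE DLD-1 arrays. From a list of 6 monocyte or B cell markers, CD68 was detected on all arrays of both lines. CD14 was detected on all DLD-1 arrays and on 8 of 12 control and 5 of 6 CSE Jurkat arrays. CD79A was detected on all Jurkat arrays and on 3 of 12 control and 4 of 6 CSE DLD-1 arrays.

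A probe was kept when detected on at least 6 of the 36 arrays, which left 22612 probes, 14 of them members, for 9 genes. The 5 probes not kept, 1 for AREG, 2 for EGFR and 2 for ERBB2, were detected on no array. Levels are normalized log2 intensities, which cannot be compared between probes. Differences are log2 differences with their standard errors (SE) from limma, whose p-values were adjusted over all 22612 probes, with 12 control and 6 CSE arrays per line. In RNA from bulk cells, fewer cells of a type and less RNA per cell cannot be told apart. Where a gene had several kept probes, the brightest over all arrays is called the lead probe.

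Among the ligands, HBEGF, heparin-binding EGF-like growth factor, rose with CSE in DLD-1 cells. Its level in control DLD-1 cells was 5.40 at the lowest, 6.93 at the median and 7.86 at the highest of 12 arrays, and with CSE it was 8.17, 8.82 and 9.67 over 6 arrays. Each of the 6 CSE arrays exceeded all 12 controls, a separation in this direction that 0.27% of all kept probes showed. The means were 6.71 ± 1.14 (SD, n = 12) and 8.81 ± 0.56 (SD, n = 6), a log2 difference of 2.10 (SE 0.45, 4.28-fold, limma adjusted p = 0.0032). The control mean of 6.71 fell between separate ranges of control arrays, 5.40 to 6.18 and 7.67 to 7.86. The size of this fold therefore depends on how many controls lay in each range. HBEGF ranked at 17 by size among the 384 probes that rose. HBEGF was 1 of 14 member probes to pass in DLD-1, where 3.71% of all kept probes passed in either direction and 1.7% rose.

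The HBEGF rise kept its direction on each of the 3 BeadChips, the slides that hold 12 arrays each, but no BeadChip alone gave a call. With the BeadChip as a block the log2 difference was 2.02 (limma adjusted p = 0.0064). The values on BeadChips 1, 2 and 3 alone were 2.07, 1.40 and 2.53 (adjusted p = 0.38, 0.24 and 1), and the last of these rests on 1 CSE array of DLD-1. The authors' normalized values gave 1.26 (limma adjusted p = 0.033). An exact permutation test over the 18564 assignments of the 18 arrays gave p = 0.0011 for HBEGF and 0.054 after adjustment over all kept probes, short of the threshold of 0.05.

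In Jurkat the HBEGF level was already higher without CSE. Control arrays ran from 9.25 through a median of 10.43 to 12.18, and CSE arrays from 9.88 through 11.55 to 11.81. The 2 groups overlapped over nearly the whole range, and their difference of 0.27 did not pass (SE 0.45, 95% interval -0.63 to 1.17, limma adjusted p = 0.76). In controls HBEGF was 17.0-fold lower in DLD-1 than in Jurkat (log2 difference -4.09, SE 0.36, limma adjusted p = 5.1e-13), with all 12 DLD-1 arrays below all 12 Jurkat arrays, as for 11% of all kept probes. By mean level the groups ran, from low to high, DLD-1 control, DLD-1 CSE, Jurkat control and Jurkat CSE. The Jurkat groups, which are neighbours in that order, did not differ beyond their spread, and the highest DLD-1 CSE array, at 9.67, lay above the lowest Jurkat control.

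The HBEGF effect was 1.83 larger in DLD-1 than in Jurkat (SE 0.63), and this difference of effects did not pass over all probes (limma adjusted p = 0.077). No member passed this test, which 5.6% of all kept probes passed; 3 of 14 had an unadjusted p under 0.05, as had 19.6% of all kept probes. The HBEGF difference passed under median scaling in place of quantile normalization (1.88, adjusted p = 0.043) and without Jurkat control replicate 5 (1.97, adjusted p = 0.048).

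**Figure D1:**
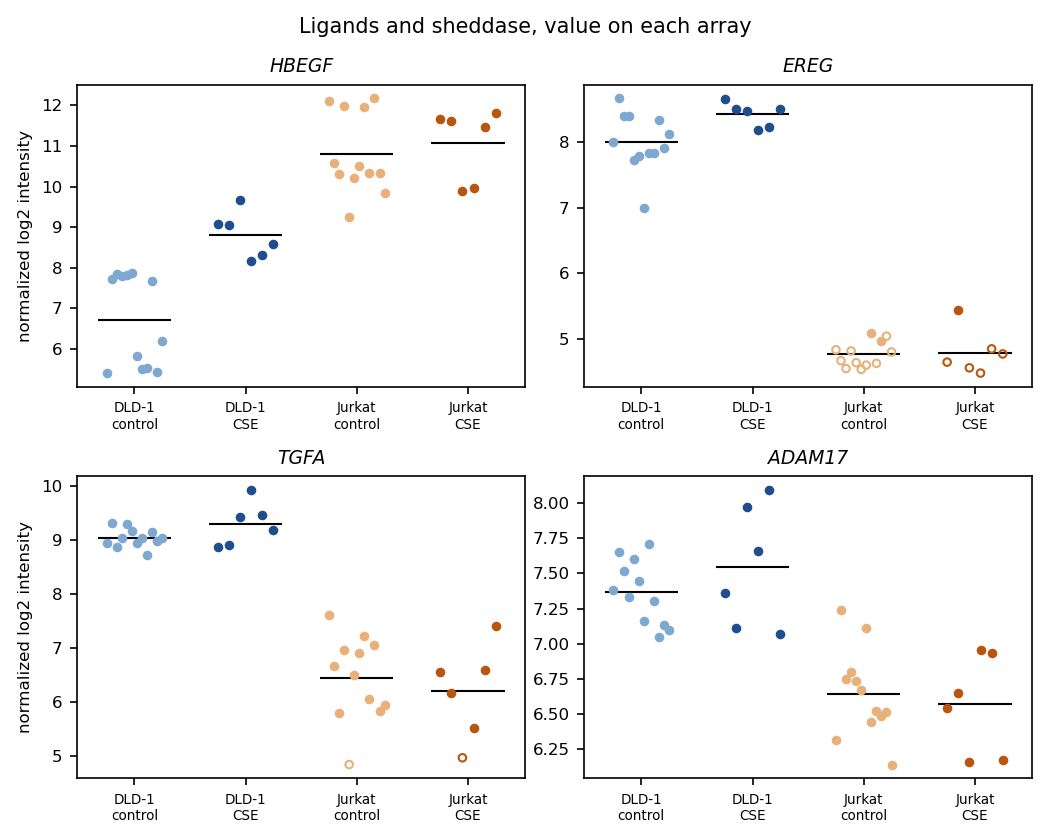
Normalized log2 intensity of the lead probes of HBEGF, EREG, TGFA and ADAM17 on each array, by group, with 12 arrays per control group and 6 per CSE group. Each point is an array, filled where the probe was detected and open where it was not, and bars are group means; for HBEGF the 6 DLD-1 CSE arrays, at 8.17 to 9.67, lie above the 12 DLD-1 controls, at 5.40 to 7.86.

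Control arrays of HBEGF fell into separate ranges in both lines. In DLD-1, 6 control arrays lay between 7.67 and 7.86 and the other 6 between 5.40 and 6.18, with a gap of 1.49. The upper arrays stood 2, 3 and 1 on BeadChips 1, 2 and 3, and the lower arrays 1, 1 and 4. In Jurkat, 4 control arrays lay between 11.96 and 12.18 and 8 between 9.25 and 10.57, with a gap of 1.39. The labels give nothing that separates these arrays.

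The immediate early gene FOS was highest on the same control arrays. The 6 upper DLD-1 arrays had FOS levels of 7.35 to 7.72 and the 6 lower ones 4.59 to 5.45, and the 4 upper Jurkat arrays had FOS levels of 9.12 to 9.59 against 4.42 to 8.74 on the other 8. The feedback inhibitors followed the same arrays in DLD-1. There ERRFI1 lay between 12.25 and 12.79 on the 6 upper arrays and between 10.10 and 11.85 on the others, and SPRY2 lay between 8.33 and 8.86 against 7.22 and 8.09. In Jurkat it was the lead TGFA probe that did so, with 6.96 to 7.60 on the 4 upper arrays and 4.84 to 6.89 on the other 8. The further TGFA probe overlapped, with 5.79 on upper replicate 8 and 6.14 on lower replicate 3. In Jurkat the ERRFI1 and SPRY2 ranges overlapped too. The remaining lead probes of both lines also overlapped between these arrays. What sets these arrays apart was not tested. How many of all kept probes separate between the same arrays was not counted, so these separations cannot be read as particular to the members.

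**Figure D2:**
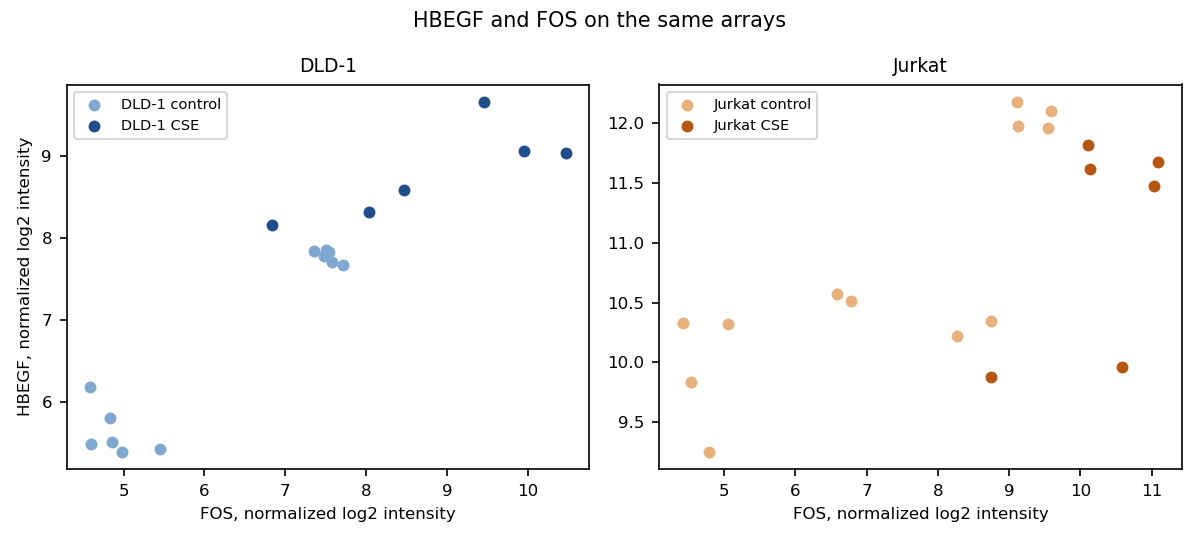
Normalized log2 intensity of HBEGF against that of FOS on each array of DLD-1 (left) and Jurkat (right), 12 control and 6 CSE arrays each. In both panels the control arrays with the higher HBEGF values, 6 in DLD-1 and 4 in Jurkat, are also those highest in FOS.

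After each group's mean was taken off, the genes whose values went most like those of HBEGF over the 18 DLD-1 arrays were PPP1R15A (r = 0.968), a probe named MIR1978 (0.966), GDF15 (0.951), IER3 (0.940) and EGR1 (0.933), out of 13985 genes compared. PPP1R15A encodes the stress-induced phosphatase subunit GADD34, GDF15 a secreted stress-responsive cytokine, and IER3 and EGR1 are immediate early genes. These correlations describe values on shared arrays, among them controls in separate ranges, and were not computed within a range. By the same measure HBEGF went with ERRFI1 at 0.87, SPRY2 at 0.77 and EREG at 0.50 in DLD-1, and with TGFA at 0.88 in Jurkat. The same rule picked ERBB2 in Jurkat, which was detected on only 3 of 12 control and 3 of 6 CSE arrays, and its closest gene there was LOC388572 (0.855); values so near background carry little.

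EREG, epiregulin, was measured in DLD-1 and lay near background in Jurkat. Its DLD-1 levels were 6.99, 7.96 and 8.67 (lowest, median and highest) in controls and 8.19, 8.49 and 8.65 with CSE. The CSE arrays sat within the upper part of the control range, and the difference of 0.43 did not pass (SE 0.16, limma adjusted p = 0.13). In Jurkat EREG was detected on 2 of 12 control and 1 of 6 CSE arrays, at 4.53 to 5.09 and 4.47 to 5.43. With each undetected Jurkat array held at no less than its lowest detected level, the control level of EREG was at least 7.57-fold higher in DLD-1 (measured log2 difference 3.24, SE 0.13, limma adjusted p = 1.6e-24). In the authors' values the EREG difference was 1.42. AREG, amphiregulin, the neighbour of EREG, was detected on none of the 36 arrays, with bead intensities of 75.9 to 100.1. A probe named AREGB, which RefSeq now lists as AREG, was likewise detected on none. An undetected probe does not show that its gene is off. Some probes of EGFR and ERBB2 were also detected on no array, while another probe of each gene was detected in DLD-1.

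TGFA, transforming growth factor alpha, was detected on all DLD-1 arrays and most Jurkat arrays. Its lead probe read 8.72, 9.03 and 9.31 in control DLD-1 cells and 8.86, 9.30 and 9.93 with CSE. Of the 6 CSE arrays, 3 lay above every control, and the difference of 0.26 did not pass (SE 0.28, limma adjusted p = 0.75). In Jurkat the same probe read 4.84, 6.57 and 7.60 in controls and 4.96, 6.36 and 7.39 with CSE, overlapping throughout (difference -0.25, SE 0.28, adjusted p = 0.62). The further TGFA probe differed with CSE by 0.39 in DLD-1 (adjusted p = 0.28) and by 0.25 in Jurkat (adjusted p = 0.40), so the probes had opposite signs in Jurkat. Both were higher in control DLD-1 than in control Jurkat cells, by 2.59 (SE 0.23, 6.03-fold, limma adjusted p = 2.8e-13) and 2.35 (SE 0.15, adjusted p = 1.9e-17), with every DLD-1 control above every Jurkat control, as for 11.8% of all kept probes. In the authors' values the TGFA differences were 1.61 and 1.15.

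ADAM17, the protease that releases these ligands, was read by 2 kept probes that did not give the same call between the lines. The lead probe read 7.05, 7.36 and 7.71 in control DLD-1 cells, 7.07, 7.51 and 8.10 in DLD-1 with CSE, 6.14, 6.59 and 7.24 in control Jurkat cells and 6.16, 6.59 and 6.96 in Jurkat with CSE. It was 1.65-fold higher in control DLD-1 than in control Jurkat cells (log2 difference 0.72, SE 0.13, limma adjusted p = 4.5e-06), with 8 of 12 DLD-1 arrays above every Jurkat control. In the authors' values that ADAM17 difference was 0.37. The dimmer ADAM17 probe, detected on 9 of 12 control DLD-1 arrays, gave 0.16 (SE 0.14, adjusted p = 0.35). Neither probe passed for CSE, with differences of 0.18 and 0.25 in DLD-1 (adjusted p = 0.66 and 0.54) and -0.07 and -0.09 in Jurkat (adjusted p = 0.82 and 0.81).

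The receptors were expressed in DLD-1 and were at or near background in Jurkat. EGFR, the receptor for all these ligands, read 7.22, 8.02 and 8.45 in control DLD-1 cells and 7.92, 8.39 and 8.54 with CSE by its lead probe. In Jurkat EGFR was detected on no array, at 4.32 to 4.49 in controls and 4.39 to 4.55 with CSE, where the lowest detected level per array was 4.95 to 5.19. The control level was therefore at least 7.37-fold higher in DLD-1 (measured log2 difference 3.54, SE 0.11, limma adjusted p = 6.2e-28). That bound sets the DLD-1 mean of 7.95 against a Jurkat mean of 5.07. For this Jurkat mean each array is given its lowest detected level or the value of the probe, whichever is higher. A further EGFR probe was at least 1.79-fold higher (measured log2 difference 1.20, adjusted p = 2.3e-12). The p-values test the measured differences and not the bounds. In the authors' values the log2 differences of the EGFR probes were 1.55 and 0.36. With CSE, 2 of 6 DLD-1 arrays lay above all controls, and the difference of 0.38 did not pass (SE 0.14, limma adjusted p = 0.12). The further EGFR probe gave -0.03 (adjusted p = 0.97).

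ERBB2, the ligandless partner, read 9.56, 9.89 and 10.12 in control DLD-1 cells and 9.31, 9.58 and 9.91 with CSE. The groups overlapped, with 2 of 6 CSE arrays below every control, and the difference of -0.25 did not pass (SE 0.14, limma adjusted p = 0.40). In Jurkat it read 4.53, 4.85 and 5.48 in controls and 4.64, 5.21 and 5.68 with CSE, with 3 detected arrays in each group (difference 0.25, SE 0.14, adjusted p = 0.25). By the same bound as for EREG, ERBB2 was at least 26.1-fold higher in control DLD-1 than in control Jurkat cells (measured log2 difference 4.95, SE 0.12, limma adjusted p = 8.9e-33). In the authors' values that log2 difference was 2.85.

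ERBB3, the neuregulin receptor, was read by 3 kept probes. Its lead probe read 9.19, 9.92 and 10.30 in control DLD-1 cells and 9.10, 9.34 and 10.08 with CSE. With CSE 3 of 6 arrays lay below every control, and the difference of -0.38 did not pass (SE 0.17, limma adjusted p = 0.23). The other ERBB3 probes gave 0.04 and 0.02 (adjusted p = 0.96 and 0.98). In Jurkat the lead probe was detected on 5 of 12 control and 2 of 6 CSE arrays, at 4.64 to 5.62 and 4.85 to 5.37. By that bound it was at least 24.9-fold higher in control DLD-1 than in control Jurkat cells (measured log2 difference 4.80, SE 0.14, limma adjusted p = 8.6e-30), or 2.79 on the log2 scale in the authors' values. A dimmer ERBB3 probe, detected on no Jurkat array, was at least 2.24-fold higher (measured log2 difference 1.62, adjusted p = 4.7e-17). The dimmest, seen on 4 of 12 control DLD-1 arrays and never in Jurkat, passed with a measured difference of 0.45 (adjusted p = 3e-04), for which no fold is given because its DLD-1 mean lay under the bound.

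**Figure D3:**
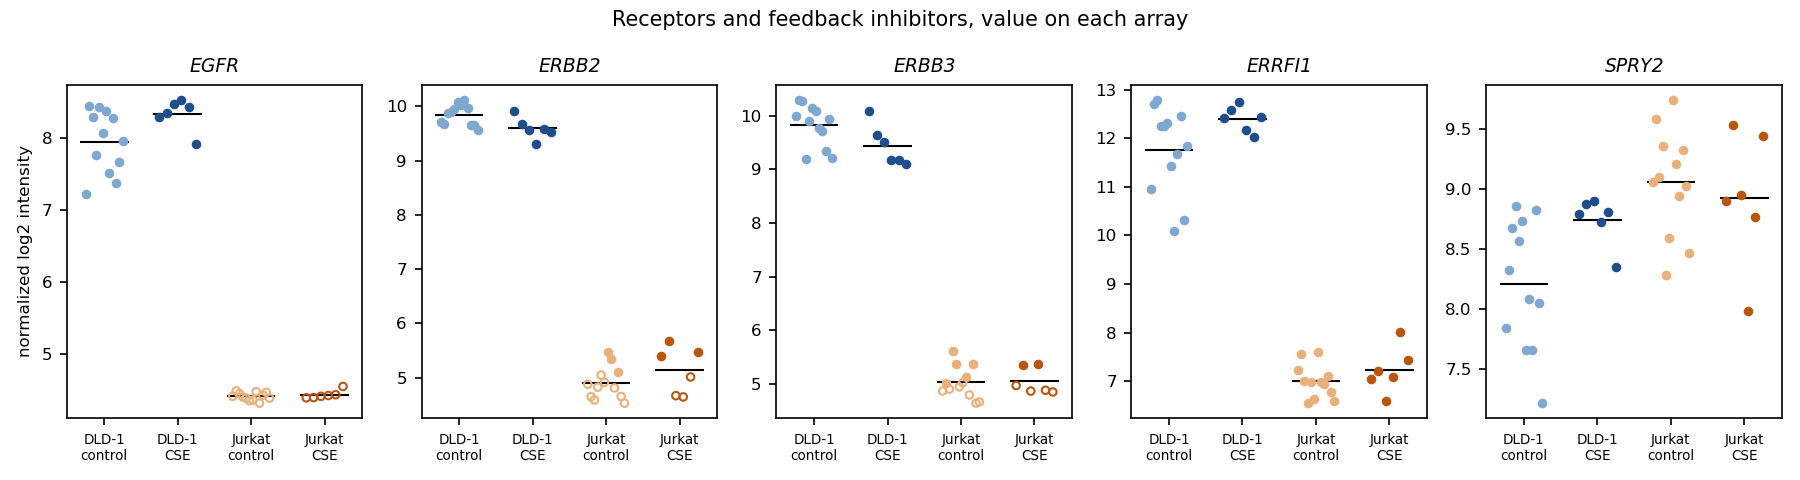
Normalized log2 intensity of the lead probes of EGFR, ERBB2, ERBB3, ERRFI1 and SPRY2 on each array, by group, with 12 arrays per control group and 6 per CSE group; vertical axes differ between panels. Filled points were detected, open points were not, and bars are group means. All DLD-1 points of the 3 receptors and of ERRFI1 lie above all Jurkat points. Between control arrays alone, 11.8% of all kept probes separated with DLD-1 above Jurkat. SPRY2 is the inhibitor with the lower mean in control DLD-1 cells.

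The feedback inhibitors differed in opposite directions between the lines. ERRFI1 read 10.10, 12.05 and 12.79 in control DLD-1 cells and 6.55, 6.98 and 7.60 in control Jurkat cells. It was 27.1-fold higher in DLD-1 (log2 difference 4.76, SE 0.23, limma adjusted p = 1.1e-21). All 12 DLD-1 arrays lay above all 12 Jurkat arrays, as for 11.8% of all kept probes. SPRY2 read 7.22, 8.21 and 8.86 in control DLD-1 cells and 8.29, 9.08 and 9.74 in control Jurkat cells. SPRY2 was 1.80-fold lower in DLD-1 (log2 difference -0.85, SE 0.18, limma adjusted p = 7.9e-05), with 6 of 12 DLD-1 arrays below every Jurkat control. Within BeadChips 1, 2 and 3 the SPRY2 difference was -0.99, -0.50 and -0.97, and the value on BeadChip 2 did not pass (adjusted p = 0.20).

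With CSE, ERRFI1 in DLD-1 read 12.03, 12.42 and 12.74, all within the range of the controls. Its difference of 0.64 did not pass (SE 0.28, limma adjusted p = 0.23), and within BeadChips 1, 2 and 3 it was 0.35, 0.25 and 1.15. SPRY2 read 8.35, 8.80 and 8.90, with 2 of 6 CSE arrays above every control, and its difference of 0.53 did not pass either (SE 0.22, limma adjusted p = 0.19). In Jurkat with CSE, ERRFI1 read 6.59, 7.15 and 8.01 (difference 0.23, SE 0.28, adjusted p = 0.65), and SPRY2 read 7.98, 8.92 and 9.53 (difference -0.13, SE 0.22, adjusted p = 0.77). For both inhibitors the CSE and control arrays overlapped in both lines.

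Over the 14 kept member probes, CSE differences in DLD-1 ran from -0.38 to 2.10 with a median of 0.25, against a median of 0.00 over all kept probes, and 11 were above 0, as were 49.3% of all kept probes. Beside HBEGF, which passed, 6 had an unadjusted limma p under 0.05 and did not pass: EREG, the lead probes of EGFR and ERBB3, the further TGFA probe, ERRFI1 and SPRY2. Of all kept probes 16% had such a p in DLD-1. In Jurkat the differences ran from -0.25 to 0.27 with a median of 0.02, as over all kept probes (0.02). There 0 of 14 passed with limma and 0 had an unadjusted p under 0.05, while 18.1% of all kept probes passed and 29.6% had such a p, and the exact permutation test gave 0 as well. The 95% intervals in Jurkat reached furthest for HBEGF, from -0.63 to 1.17, and for the lead TGFA probe, from -0.81 to 0.31, and changes within these intervals are not excluded.

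**Figure D4:**
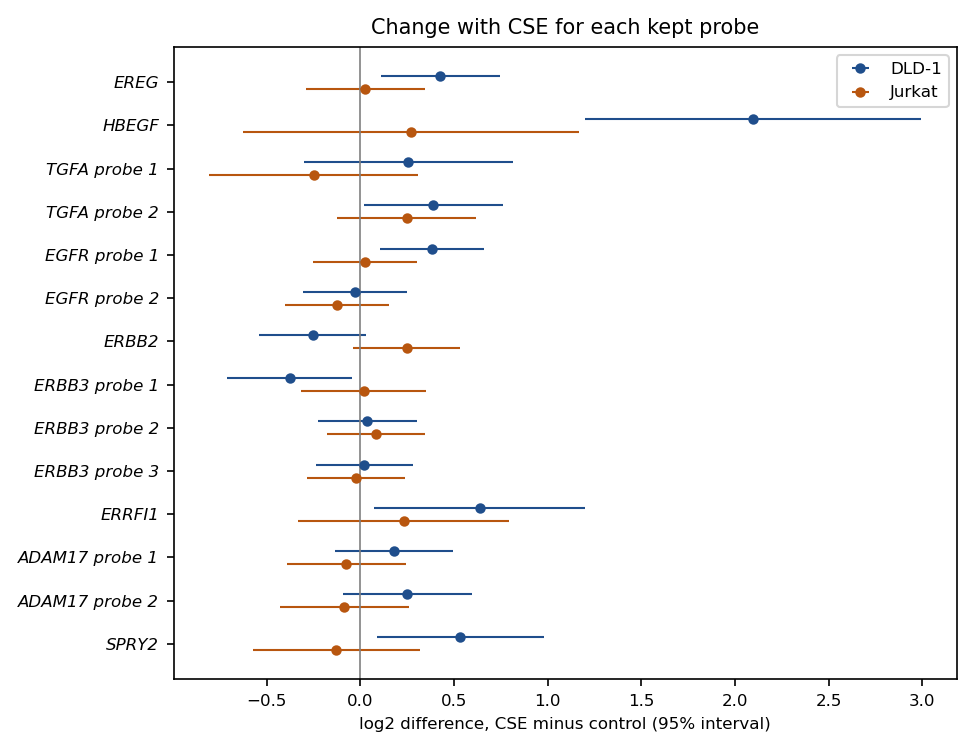
Log2 difference, CSE minus control, with its 95% interval from limma, for each of the 14 kept member probes in DLD-1 and Jurkat (6 CSE and 12 control arrays per line). HBEGF in DLD-1, at 2.10, is the value that passed after adjustment over all 22612 probes; the Jurkat values lie between -0.25 and 0.27.

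Between the untreated lines, 13 of 14 member probes passed, 11 higher and 2 lower in DLD-1, where 60% of all kept probes passed, 27.6% higher and 32.3% lower. The 2 lower probes were those of HBEGF and SPRY2. The member differences ran from -4.09 to 4.95 with a median of 1.99, against -0.04 over all kept probes. Differences against Jurkat levels near background were smaller in the authors' values, as given for EREG, EGFR, ERBB2 and ERBB3.

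**Figure D5:**
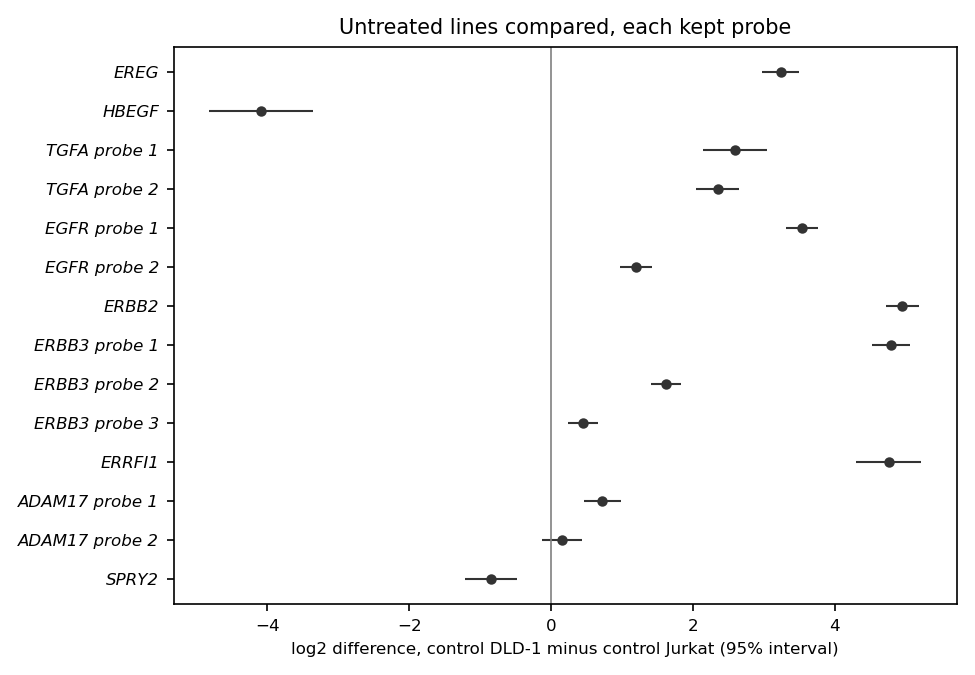
Log2 difference between control DLD-1 and control Jurkat cells, with its 95% interval from limma, for each of the 14 kept member probes (12 arrays per group). Values run from -4.09 for HBEGF to 4.95 for ERBB2, and the dimmer ADAM17 probe, at 0.16, is the value that did not pass.

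Other genes of the pathway were read from 5 lists, with the lead probe of each gene; 60 of 69 listed genes had a kept probe. In DLD-1 6 of these rose with CSE and 2 fell, where 1.7% of all kept probes rose and 2.01% fell. In Jurkat 5 rose and 10 fell, where 7.4% of all kept probes rose and 10.7% fell. Among other ligands and the remaining receptor, 4 of 8 were measured and none passed in either line. EGF itself and the receptor ERBB4 had no kept probe. BTC, betacellulin, was detected on all DLD-1 arrays and on no Jurkat array, with a CSE difference in DLD-1 of -0.01 (limma adjusted p = 0.99).

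Of 6 measured shedding genes, RHBDF1 fell in DLD-1 by 0.96 on the log2 scale (SE 0.16, limma adjusted p = 0.00022). RHBDF1 encodes iRhom1, an inactive rhomboid protein that helps ADAM17 mature. It went from a mean of 8.99 in control DLD-1 cells to 8.04 with CSE and was detected on no Jurkat array. Within BeadChips 1, 2 and 3 the RHBDF1 difference was -0.54, -1.63 and 0.07, so its direction turned on BeadChip 3, where DLD-1 has 1 CSE array. In Jurkat, ADAM15, a metalloprotease, rose by 0.60 (SE 0.13, adjusted p = 0.00091), and the effects on ADAM15 differed between the lines by -0.75 (adjusted p = 0.012). Under median scaling the ADAM15 rise was 0.41 and no longer passed (adjusted p = 0.063), and 2 of its 4 kept probes did not pass. ADAM10, another sheddase, fell in Jurkat by 0.77 (adjusted p = 0.00056) by its lead probe, 1 of 2 kept.

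Among 22 measured adaptors and kinases, 3 rose in DLD-1 and none fell, where 1.7% of all kept probes rose and 2.01% fell. BRAF, a RAF kinase, rose by 0.64 (SE 0.15, limma adjusted p = 0.0099) from a level near background, detected on 6 of 12 control arrays, and it did not pass with the exact permutation test (adjusted p = 0.14) or without DLD-1 CSE replicate 5 (adjusted p = 0.052). In Jurkat 2 rose and 3 fell, where 7.4% of all kept probes rose and 10.7% fell. PIK3R1, the regulatory subunit of PI3 kinase, fell by 1.27 (SE 0.15, adjusted p = 3.1e-08). PTPN11, the phosphatase SHP2 that carries receptor signals to RAS, fell by 0.90 (SE 0.13, adjusted p = 1.6e-06), and MAPK3, which encodes ERK1, rose by 0.35 (SE 0.10, adjusted p = 0.0099; 0.21 and adjusted p = 0.28 under median scaling).

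Of 14 measured genes that restrain the receptor or RAS, 0 passed in DLD-1, where 3.71% of all kept probes passed. In Jurkat 5 of these genes fell, where 10.7% of all kept probes fell. Those that fell were SPRED1 (-0.78, limma adjusted p = 0.0014) and SPRED2 (-0.90, adjusted p = 0.00039), relatives of the Sproutys, the ubiquitin ligase CBL (-1.07, adjusted p = 0.00029), SOCS4 (-1.36, adjusted p = 5e-07), a suppressor of cytokine signalling, and the phosphatase PTPN1 (-0.36, adjusted p = 0.033). The CBL value is that of its lead probe, 1 of 2 kept. The PTPN1 call was lost without any of several arrays, with adjusted p up to 0.11. Effects differed between the lines for SPRED1 by 1.20 (adjusted p = 0.0031), SPRED2 by 1.13 (adjusted p = 0.0078) and SOCS4 by 1.28 (adjusted p = 0.0018). A dimmer SOCS4 probe fell by 0.45 in Jurkat (adjusted p = 0.039) and the dimmest gave 0.35 (adjusted p = 0.20).

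Of 14 measured ERK-responsive transcripts, 3 rose and 1 fell in DLD-1, where 1.7% of all kept probes rose and 2.01% fell. For Jurkat 2 rose and 1 fell, where 7.4% of all kept probes rose and 10.7% fell. FOSL1, which encodes the AP-1 subunit FRA1, rose by 1.38 in DLD-1 (SE 0.28, limma adjusted p = 0.0018), with 0.17, 1.90 and 1.65 within BeadChips 1, 2 and 3. The FOSL1 call was lost with the exact permutation test (adjusted p = 0.11). MCL1, an anti-apoptotic BCL2 relative, rose by 0.91 (SE 0.18, adjusted p = 0.0016). FOS rose by 2.67 in DLD-1 (adjusted p = 0.026) and by 3.07 in Jurkat (SE 0.72, adjusted p = 0.0019), though FOS was detected on only 7 of 12 DLD-1 controls and its DLD-1 call was lost without DLD-1 CSE replicates 1, 2 or 3 (adjusted p = 0.069, 0.083 and 0.087). IER2, an immediate early gene, rose by 0.95 in Jurkat (SE 0.27, adjusted p = 0.011). MYC fell in both lines, by 0.71 in DLD-1 (SE 0.19, adjusted p = 0.02) and by 1.99 in Jurkat (SE 0.19, adjusted p = 2.5e-10), and the effects on MYC differed by 1.28 (adjusted p = 0.0025). The DLD-1 fall of MYC did not pass under median scaling (-0.56, adjusted p = 0.14) or without DLD-1 CSE replicates 2, 3 or 6 (adjusted p = 0.057, 0.081 and 0.051). With the exact permutation test the DLD-1 calls of FOS and MYC were also lost (adjusted p = 0.074 and 0.13). With DLD-1 arrays alone MYC did not pass (limma adjusted p = 0.067).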

How the data were processed

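RNA of 36 samples was hybridised to Illumina bead arrays, 1 sample per array. The authors deposited an average bead intensity per probe, not normalized per the file headers, with a detection p-value per probe and array, and a further table of intensity values, normalized by the authors on a linear scale. The sources used here do not name the software, and 0 per-sample columns were left unused. Groups came from the labels.

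From the deposited intensities, limma 3.58.1 in R 4.3.3 corrected the background (neqc, normal-exponential model through the detection p-values, offset 16), normalized by quantiles and took log2. A probe was kept if at least 6 arrays gave a detection p-value under 0.05. A limma model with a mean per group was fitted to all 36 arrays and 22612 kept probes, and Benjamini-Hochberg adjustment ran over all of them (threshold 0.05). Because the groups share 1 estimate of the spread, a probe that varies more in a group can have too small an SE there. On simulated data for the CSE comparison in DLD-1 over 22612 probes, 94 of 100 probes changed by 1 and 99 of 100 changed by 2 on the log2 scale were recovered. The simulated noise was normal, independent between arrays and equal in spread across groups. It held no separate ranges of arrays such as those of HBEGF, so recovery in the real data may be lower.

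A fold of at least a stated size is given where a probe was detected on 5 or fewer of the 12 arrays of the dimmer group. Such a bound holds for the background-corrected values used here and not for the authors' values, where the differences were smaller. Names were updated through RefSeq (59792 genes, GRCh38.p14), for names and promoter sequences only, since the files state no build. Named genes were all members whatever their values, and from each pathway list up to 4 genes per line and direction with the smallest p among those past the threshold. ADAM10, SOS1, BTC, SPRED1, SPRED2, CBL and PTPN1, FOS in DLD-1 and the AREGB probe were added after their values were seen. Values of 1 pathway gene that the rule names are not reported here. Members and lists were chosen with earlier results of these data known. Alternatives covered the authors' values, background, scaling, filters, probe choice, spread, BeadChips, each array left out and an exact permutation test.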

Additional observations from a re-analysis of the deposited data

Results flagged for a closer look

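SPRY2 in DLD-1 CSE replicate 6 read 8.35, while the other 5 DLD-1 CSE arrays lay between 8.72 and 8.90. It was singled out because its gap to the nearest other array made up 0.678 of the group's range, above Dixon's 95% critical value for a group of 6. SPRY2 was detected on all 6 of these arrays. Of 24 groups of 6 arrays examined this was the only such value, and chance gives about 1 in 20.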

How the results depend on the processing

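No paired analysis was possible because the replicate numbers follow the order of accession and pair no arrays. Of the values of member probes under the alternatives, 2683 kept their side of the threshold, 7 lost a call and 2 gained a call. No value that passed in the main fit or the alternative changed sign. Some values without a call did change sign, as for ERBB2 in Jurkat (-0.55 to 0.52). The number of probes called for CSE in DLD-1 (838) was 33 on BeadChip 1, 1 on BeadChip 3 and 420 with the exact permutation test, and ran from 354 (without DLD-1 CSE replicate 3) to 1108 with an array left out (439 without DLD-1 CSE replicate 5). The member count in DLD-1 (1, HBEGF) was 0 on BeadChips 1, 2 and 3 alone and with the exact permutation test, and 1 with any array left out, where HBEGF ran from 1.93 to 2.23 (adjusted p 0.0023 to 0.022). In Jurkat the 4096 probes called became 1158, 576 and 655 on BeadChips 1, 2 and 3 and 3125 to 4156 with an array left out, with 0 members throughout. The difference of effects (1267 probes) gave 7, 213 and 0 on BeadChips 1, 2 and 3 and 786 to 1511 with an array left out (786 without Jurkat CSE replicate 1, 791 and 800 without DLD-1 CSE replicates 3 and 5). Its member count of 0 became 1, HBEGF, under median scaling and, with an array left out, ran from 0 to 1. Between the lines 13 members passed with any array left out, and 13360 to 13576 probes. The dimmest ERBB3 probe lost its call on BeadChips 1 and 3 (0.39 and 0.36) and SPRY2 on BeadChip 2 (-0.50). Each BeadChip alone holds fewer arrays; for the other alternatives the cause was not tested. Among pathway genes, tried under the same alternatives after seeing the data, 1434 values kept their side, 114 lost the call, and on BeadChip 3 RHBDF1 (0.066) and SOS1 (-0.39) reversed in DLD-1. The count of pathway genes called in DLD-1 (8) was 0 to 5 on single BeadChips, 5 with DLD-1 arrays alone, 3 with the exact permutation test and 5 to 8 with an array left out. For EGFR, ERBB2, ERBB3 and EREG, near background in Jurkat, folds between the lines are lower bounds on the background-corrected scale only. The authors' values gave smaller differences.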
